A study of Homo sapiens with 3 samples.

Results

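The genes described here encode the chaperonins of human cells: HSPD1 and HSPE1 of the mitochondrion, and TCP1, CCT2, CCT3, CCT4, CCT5, CCT6A, CCT7 and CCT8 of the cytosol. They were found by symbol in the platform annotation of the arrays, and all 10 were present, each measured by 1 probe. These are 10 of 24460 gene probes and 10 of 17621 annotated symbols. All 10 probes were above the detection limit, the mean of the blank spots plus 2 SD, on every array.

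Chaperonins are ring-shaped machines that enclose an unfolded protein and let it fold inside the cavity. HSPD1 (HSP60) forms the ring of the mitochondrial matrix, and HSPE1 (HSP10) is the lid that closes it. The cytosolic chaperonin CCT, also called TRiC, is built of stacked rings of 8 different subunits and folds actin, tubulin and other proteins. In human cells HSPD1 and HSPE1 are known as heat shock genes, and CCT works downstream of the prefoldin complex, which hands over nascent actin and tubulin chains.

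The study set knockdown of DKK3, a secreted glycoprotein, against its controls in the tongue squamous carcinoma line HSC-3. Total RNA was hybridised to 3 single-colour arrays. The shDKK3 cells carried a short hairpin RNA against DKK3 and the shScr cells a scrambled hairpin, each delivered by a GFP lentiviral vector made in HEK293 cells, and the parental cells carried none. All were grown in DMEM with serum, puromycin is given for both hairpin lines alone, and the labels used here do not say whether either line is a clone. One label field words the shDKK3 line as a DKK3 transfection, while its hairpin field and title name shDKK3. Each condition has 1 array, so no difference has a replicate error, no test was possible, and every value compares arrays, not conditions. The number of arrays limits the precision. In such bulk RNA, fewer cells with a transcript and less transcript per cell cannot be told apart.

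HSPD1 and HSPE1 lie head to head on chromosome 2 and start 104 bases apart. The stretch between them is shown first because the normalised and deposited values below give opposite signs for the pair. The sign for HSPE1, a dim probe, turned against shScr when a scanner column named as background was subtracted. The sequences are from RefSeq (GRCh38.p14), in which 9 of the 10 genes had an upstream window. CCT6A had no entry. The first is chr2:197500275-197500378 on the strand of HSPE1, with a GC box (GGGCGG on either strand) and an E-box (CACGTG) in capitals.
HSPD1-HSPE1 intergenic: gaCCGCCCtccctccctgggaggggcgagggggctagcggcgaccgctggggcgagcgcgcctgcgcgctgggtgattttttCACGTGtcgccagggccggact

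The heat shock element, the sequence bound by heat shock factors, was searched as GAANNTTC or TTCNNGAA on both strands in the 250 bases before each start. The 9 genes have 12 windows, since some have several starts. The element was present in 3 of the 12 (HSPD1, TCP1 and CCT2), against 11.6% of all 35116 windows. Its longer form, the same pattern carried on to 3 units and so containing the shorter one, was present in 1 of the 12, before HSPD1, against 0.441% of all windows. That match lies before the inner of 2 annotated HSPD1 starts, 189 bases inside the gene from the outer start. The capitals mark the elements, at chr2:197500063-197500090 for HSPD1 and chr6:159789816-159789843 for TCP1, each on the strand of its gene. For HSPD1 they cover overlapping matches to the 3-unit form, which begin 245 and 240 bases before the inner start.
HSPD1 heat shock element: gcattTTCTGGAAAGTTCTGGAAccgag
TCP1 heat shock element: cgtttgaggcGAAGGTTCaacctcttcc

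Upstream windows are shown for CCT8 and CCT7 as well, because these subunits of the same complex lay on opposite sides of both control arrays. They are chr21:29073649-29073898 and chr2:73234058-73234307 on the strand of each gene, with CCAAT boxes (CCAAT on either strand) and GC boxes in capitals. A CCAAT box was present in 4 of the 12 windows (CCT3, TCP1, CCT2 and CCT8), against 32% of all windows, and a GC box in 8 of 12, belonging to 6 genes, against 42.6%. The outer HSPD1 window and the HSPE1 window overlap, and the GC box between the genes is counted in both. The CCT7 window holds neither a CCAAT box nor a GC box. A match describes letters in these windows and is not a site of binding.
CCT8: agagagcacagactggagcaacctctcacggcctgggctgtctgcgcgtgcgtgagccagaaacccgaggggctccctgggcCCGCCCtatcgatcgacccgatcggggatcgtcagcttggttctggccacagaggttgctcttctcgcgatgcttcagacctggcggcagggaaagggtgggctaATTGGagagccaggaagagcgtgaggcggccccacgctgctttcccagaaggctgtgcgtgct
CCT7: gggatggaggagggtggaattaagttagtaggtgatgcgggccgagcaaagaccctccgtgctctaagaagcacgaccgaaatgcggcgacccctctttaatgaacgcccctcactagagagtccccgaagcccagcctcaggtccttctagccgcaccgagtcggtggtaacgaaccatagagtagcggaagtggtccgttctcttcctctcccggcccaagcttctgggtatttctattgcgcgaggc

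Of all gene probes, between 78.5% and 81.3% were above the detection limit on each array. All 7 squamous keratinocyte markers examined were detected on all arrays, and their summed deposited intensity was 51333 in shDKK3, 17065 in shScr and 15365 in parental cells. The sum was carried by KRT5, KRT14, KRT17 and SFN. DSG3 was lowest in shDKK3 cells (53.0, against 61.6 in shScr and 69.8 in parental cells), and TP63 was at 21.5 in shDKK3, 24.8 in shScr and 18.1 in parental cells. Their part in the results below was not tested. Of 6 fibroblast markers, 3 were detected in shDKK3, 1 in shScr and 2 in parental cells, with sums of 56.1, 41.4 and 48.6 deposited units that were nearly all PDGFRB, while PDGFRA was not listed. Leukocyte markers summed to between 27.0 and 33.6 units, with PTPRC not listed, and endothelial markers to between 7.1 and 11.4. DKK3 itself had a deposited intensity of 170 in shDKK3, 226 in shScr and 309 in parental cells, lowest where the hairpin targets it. Its log2 difference on the shDKK3 array was -0.39 to shScr and -0.71 to parental, short of 2-fold. Between the controls it was -0.32 (shScr minus parental), and 17.1% of compared genes had a lower shDKK3 minus shScr value than DKK3. Counting names made of the gene symbol, P and a number, RefSeq has 61 pseudogenes for 8 of the 10 chaperonin genes. Of them 22 are for HSPD1 and 28 for HSPE1. Copies named in another way were not counted, so the 0 found for CCT2 and CCT6A does not show that they have none. The probe sequences were not used here, so signal from such copies cannot be told apart from that of the gene.

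HSPD1, the mitochondrial HSP60, was dimmest in shDKK3 cells and brightest in shScr cells. In the authors' deposited table, which is linear and has a median of 25 on each array, HSPD1 stood at 2406 in shDKK3, 5715 in shScr and 4183 in parental cells. After background correction and quantile normalisation of the scanner values, it stood 3.90-fold below shScr in shDKK3 cells, a log2 difference of -1.96. Only 0.172% of all compared genes had a lower value in that comparison. Against parental cells it was 2.11-fold lower (-1.08), and shScr exceeded parental by 0.89 on the log2 scale. The deposited values gave smaller differences, at 2.38-fold lower than shScr and 1.74-fold lower than parental, where 2-fold was not reached. The scanner files hold a second column, named as background, that follows the spot (r between 0.949 and 0.976 on the log2 scale over the probes of an array). For HSPD1 it was 72.6% of the spot in shDKK3, 7.06% in shScr and 73.0% in parental cells, and the shScr share was the lowest of any of the 10 genes on any array. With that column subtracted, the log2 differences became -3.44 (shDKK3 minus shScr), -1.14 (shDKK3 minus parental) and 2.30 (shScr minus parental).

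HSPE1, the lid of the same chaperonin, was the dimmest of the 10 and was higher in shDKK3 cells in the authors' values. Its spots were 1.44 times the detection limit in shDKK3, 1.27 times in shScr and 1.32 times in parental cells. The deposited intensity was 23.3 in shDKK3, 10.5 in shScr and 15.3 in parental cells, highest where HSPD1 was lowest. The normalised log2 difference was 0.29 for shDKK3 minus shScr, 0.22 for shDKK3 minus parental and -0.07 for shScr minus parental. The offset of 50 added before taking logs shrinks differences between such dim spots, and with an offset of 16 the difference to shScr was 0.52. In the deposited values, which have no such offset, HSPE1 in shDKK3 cells was 2.22-fold higher than in shScr cells and 1.52-fold higher than in parental cells. Before any scaling the spots read 71.1 in shDKK3, 74.9 in shScr and 71.6 in parental cells. These readings have another order, with shDKK3 lowest, and with the second column subtracted the log2 difference to shScr was -0.70. The unscaled readings also carry the different blank means of the arrays. The sign of the HSPE1 difference to shScr turned only with the second column subtracted. It was the same in the 11 other alternatives, at 0.30 with no background correction. At this signal the difference remains uncertain.

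**Figure D1:**
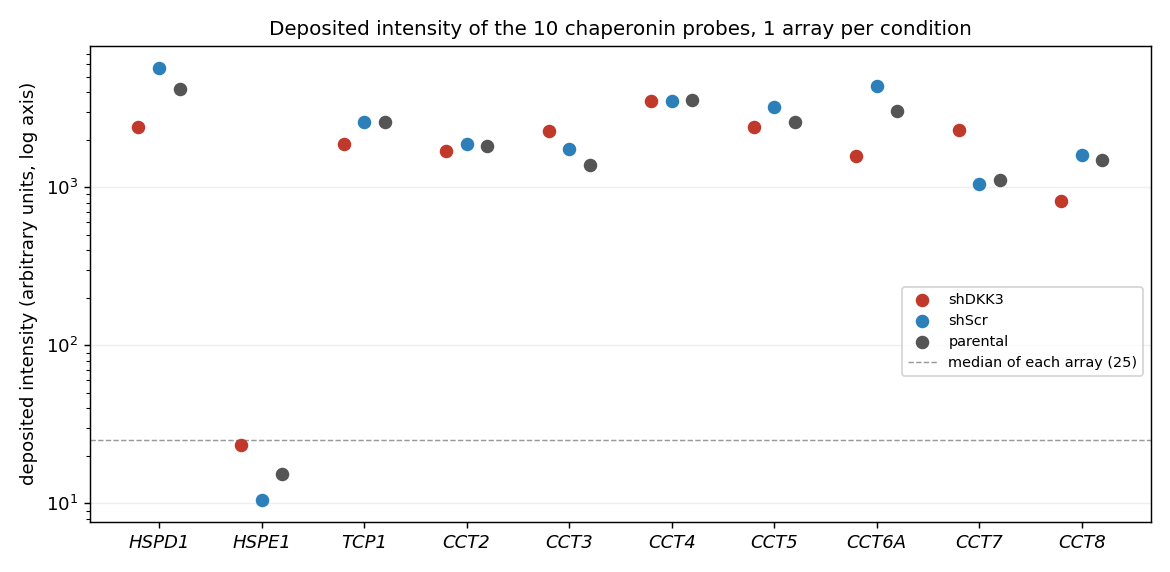
Deposited intensity (arbitrary units, log axis) of the 10 chaperonin probes on the shDKK3, shScr and parental arrays, 1 point per array, with the array median of 25 as a dashed line. HSPD1 and CCT6A spread most among the bright probes, with shDKK3 lowest at 2406 and 1580. CCT7 is highest on the shDKK3 array at 2286, and HSPE1 alone lies below the array median.

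Among the cytosolic subunits, CCT6A, CCT8, TCP1 and CCT5 in shDKK3 cells were 2-fold or more below shScr. CCT6A, the zeta subunit, had deposited intensities of 1580 in shDKK3, 4393 in shScr and 3038 in parental cells. After normalisation shDKK3 was 4.45-fold below shScr (-2.15) and 2.25-fold below parental (-1.17), the largest differences among the members in both comparisons. Between the controls, shScr exceeded parental by 0.98. In the deposited values CCT6A was 2.78-fold lower than shScr and 1.92-fold lower than parental. With the second column subtracted its log2 differences were -1.65 to shScr and -0.25 to parental.

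CCT8, the theta subunit, had deposited intensities of 820 in shDKK3, 1597 in shScr and 1479 in parental cells. The shDKK3 array was the lowest and the control arrays lay closer to each other in these values. The normalised log2 difference was -1.38 to shScr and -1.002 to parental, where the fold of 2.003 only just reached the threshold. The deposited values gave 1.95-fold lower than shScr and 1.80-fold lower than parental, both short of 2-fold. The second column was 102% of the spot in shDKK3, 106% in shScr and 98.1% in parental cells, so its subtraction left no value.

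TCP1, the alpha subunit after which the complex is named, had deposited intensities of 1869 in shDKK3, 2595 in shScr and 2577 in parental cells. Its normalised log2 difference was -1.02 to shScr and -0.73 to parental, and the control arrays differed by 0.29. CCT5, the epsilon subunit, had deposited intensities of 2421 in shDKK3, 3200.5 in shScr and 2593 in parental cells. Its log2 difference was -1.05 to shScr but -0.39 to parental, with shScr 0.66 above parental. The 2-fold difference to shScr of both genes was marginal: in the deposited values TCP1 was 1.39-fold and CCT5 1.32-fold lower, and their log2 differences under 75th-percentile scaling were -0.73 and -0.66. With the second column subtracted CCT5 was at -3.98 to shScr and -1.96 to parental. TCP1 was then at -0.93 to shScr and 0.14 to parental, where its sign turned.

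CCT2 and CCT4, the beta and delta subunits, differed by less than 2-fold in every comparison. CCT2 had deposited intensities of 1693 in shDKK3, 1865 in shScr and 1812 in parental cells. CCT4 had 3493 in shDKK3, 3503 in shScr and 3578 in parental cells, log2 differences of -0.004 to shScr and -0.03 to parental. The normalised log2 differences for shDKK3 minus shScr were -0.69 for CCT2 and -0.71 for CCT4, and those to parental -0.37 and -0.35. The scaling moves all genes here: the median of all genes for shDKK3 minus shScr was 0.03 after quantile normalisation and 0.32 in the deposited values. Set against that median, CCT4 was at -0.74 after normalisation and -0.33 in the deposited values.

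CCT3 and CCT7, the gamma and eta subunits, were not dimmest in shDKK3 cells. CCT7 had deposited intensities of 2286 in shDKK3, 1056 in shScr and 1105 in parental cells, so the shDKK3 array was the highest and the controls lay close together. Its normalised log2 difference was 0.58 to shScr and 0.71 to parental. It passed 2-fold only in the deposited values, at 2.16-fold and 2.07-fold higher, and with the second column subtracted, at a log2 difference of 1.39 to shScr alone. CCT3 had deposited intensities of 2266 in shDKK3, 1753 in shScr and 1391 in parental cells. Its log2 difference to parental was 0.36 and to shScr -0.23. The sign of the difference to shScr turned with the scaling, to 0.37 in the deposited values and 0.10 under 75th-percentile scaling. With the second column subtracted, CCT3 was at -1.88 to shScr and -1.99 to parental.

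Counted together, 5 of the 10 genes in shDKK3 cells were 2-fold or more below shScr (HSPD1, CCT6A, CCT8, CCT5 and TCP1), where 4.48% of 15148 compared genes were. None of the 10 was 2-fold higher after normalisation, against 2.96% of all genes. With 10 genes, a count of 0 cannot be told apart from so small a share. The offset added before taking logs shrinks differences between dim spots, and HSPE1 alone of the 10 is dim. The all-gene shares here and below therefore depend on the setting and were not computed for genes of like brightness. With subtraction of the blank mean, 2019 of 15152 genes were 2-fold or more below shScr, beside the same 5 of the 10. For the deposited values it was 1610 of 14853 genes, beside HSPD1 and CCT6A alone. In the deposited values HSPE1 (2.22-fold) and CCT7 (2.16-fold) were higher, where 2200 of 14853 genes were at least 2-fold higher. CCT7 was there also 2.07-fold higher than parental. Against the parental array, 3 of 10 were at least 2-fold lower (CCT6A, HSPD1 and CCT8), where 3.04% of 14962 genes were, and 0 of 10 were 2-fold higher, against 0.862%. The same 3 genes were at least 2-fold lower than each control, against 2.05% of all genes, and 0 of 10 were higher than each, against 0.564%. These 2 comparisons share the shDKK3 array, so they are not independent of each other. The median of the 10 genes was -0.86 to shScr and -0.38 to parental, beside medians of 0.03 over all genes in each. Relative to the all-gene median, the median of the 10 genes to shScr was -0.89 after quantile normalisation, -0.90 under 75th-percentile scaling and -0.59 in the deposited values.

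**Figure D2:**
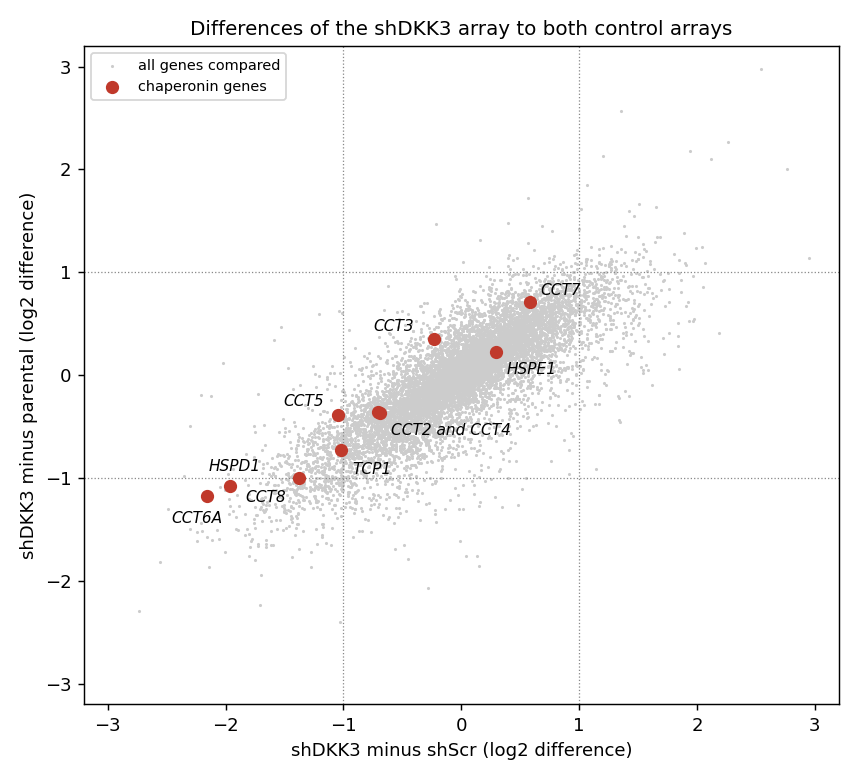
Log2 difference of the shDKK3 array to the shScr array (x axis) and to the parental array (y axis) for all compared genes (grey) and the 10 chaperonin genes (red), with dotted lines at 2-fold. CCT6A, HSPD1 and CCT8 lie beyond the 2-fold lines of both axes, at -2.15, -1.96 and -1.38 on x, and CCT7 lies at 0.58 and 0.71. Both axes contain the shDKK3 array, which by itself gives points along the diagonal.

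The control arrays also differed from each other. The shScr array exceeded the parental array for 9 of the 10 genes, with a median log2 difference of 0.36 beside 0.004 over all genes. None of the 10 was at least 2-fold higher, against 0.404% of all genes, and none was 2-fold lower, against 0.983%. CCT6A (0.98), HSPD1 (0.89), CCT5 (0.66) and CCT3 (0.59) differed most. In 7 of the 10 genes the order was shDKK3 lowest, parental between and shScr highest, an order found in 22.8% of the 14054 genes detected on all arrays. In the deposited values 6 of the 10 had this order, against 16.03% of genes.

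The subunits of CCT did not differ by a common amount. Across the 8 of them the log2 difference of shDKK3 minus shScr ran between -2.15 for CCT6A and 0.58 for CCT7, a span of 2.73. For shDKK3 minus parental the span was 1.88, and for shScr minus parental 0.86. These spans are after quantile normalisation, which is not 1 factor per array, and they can depend on the intensity of each probe. For shDKK3 minus shScr, CCT6A and CCT7 were at -1.48 and 1.11 in the deposited values. Under 75th-percentile scaling they were at -1.72 and 0.83. With the second column subtracted, CCT5 was lowest at -3.98 and CCT7 highest at 1.39. The cause of the spread was not tested.

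**Figure D3:**
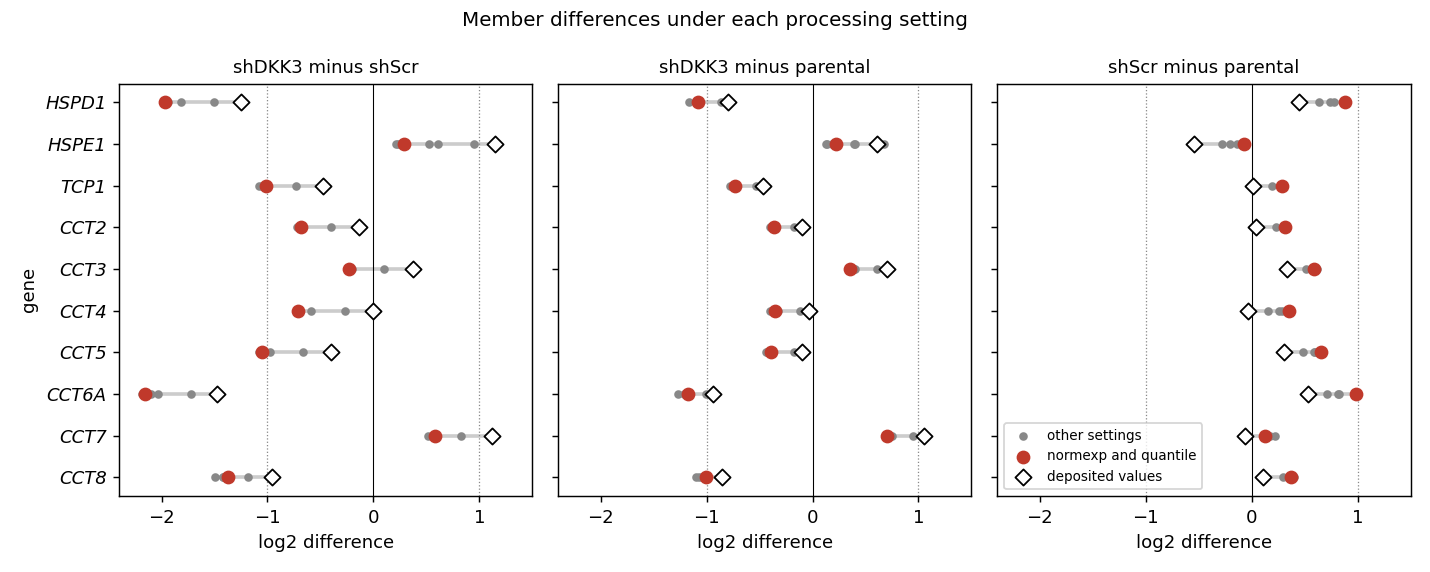
Log2 difference of each chaperonin gene under each processing setting, for shDKK3 minus shScr (left), shDKK3 minus parental (middle) and shScr minus parental (right). Red points are normexp correction with quantile normalisation, white diamonds the authors' deposited values, grey points the other settings apart from the subtracted background column, and dotted lines 2-fold. HSPD1 and CCT6A stay beyond 2-fold against shScr in every setting drawn (-1.25 and -1.48 in the deposited values), while CCT3 lies on both sides of 0.

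The genes with the nearest pair of differences to HSPD1, among the 14044 other genes detected on all 3 arrays, were GPBP1, SERINC1, RABGGTB, SF3B1 and SLC25A36. GPBP1, a promoter-binding protein, was at -1.97 to shScr and -1.07 to parental. SERINC1, a membrane protein of serine incorporation, was at -1.95 and -1.05, RABGGTB, a subunit of Rab geranylgeranyl transferase, at -2.01 and -1.12, SF3B1, a core splicing factor, at -2.05 and -1.09, and SLC25A36, a mitochondrial nucleotide carrier, at -1.90 and -1.16. Likeness was the distance over those 2 differences, which rest on 3 arrays.

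Cofactors that work with CCT were divided. Of 10 prefoldin and cofactor genes compared, 2 were 2-fold or more below shScr and 1 above it, with a median of -0.42. Over all compared genes, 4.48% were as far below shScr and 2.96% as far above it. VBP1, a prefoldin subunit, was at -2.07 to shScr and -1.51 to parental, and TXNDC9, a thioredoxin-like protein that binds CCT, at -1.91 and -1.49. UXT, a prefoldin-like protein, was at 1.04 to shScr and 0.77 to parental. Of the CCT-related genes, MKKS (-0.80 to shScr), BBS10 (-0.65) and BBS12 (-0.30), which encode chaperonin-like proteins of the primary cilium, all lay below shScr by less than 2-fold after normalisation. In the deposited values BBS10 was at 27.5 in shDKK3, 62.0 in shScr and 52.5 in parental cells, and BBS12 at 6.9 in shDKK3, 14.9 in shScr and 9.89 in parental cells. These dim probes were there more than 2-fold below shScr. The testis subunit CCT6B was not above the detection limit on any array.

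The actin and tubulin genes, whose products CCT folds, had a median of 0.47 to shScr with their tubulin cofactors. In that list the actin ACTB was at 0.11 to shScr and -0.10 to parental, and the actin ACTG1 at -0.30 to each. Quantile normalisation sets such values by rank, and ACTG1 was at 0 for shScr minus parental. In the deposited values shDKK3 was highest for both actins. ACTG1 had 30083 in shDKK3, 22607 in shScr and 24961 in parental cells, and ACTB had 15172, 7778 and 11473 in that order. The sign for these very bright probes therefore depended on the scaling. Among 17 genes compared, 2 exceeded shScr by 2-fold or more, against 2.96% of all genes, and 0 were as far below it, against 4.48%. TUBB3, a beta-tubulin, was at 1.99 to shScr and 1.24 to parental, TUBB2A at 1.72 and 0.92, and TUBB at 0.80 and 0.09. The second TUBB3 probe gave 0.05 to shScr, and tubulin genes are near-identical paralogs, so these values are uncertain. On the shScr array TUBB3, TUBB2A and TUBB lay below parental, at -0.76, -0.80 and -0.72, while the second probes of TUBB3 and TUBB were at -0.07 and -0.27.

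Partners of HSPD1 in the mitochondrion differed in both directions. Of 14 genes of the mitochondrial HSP70 system and proteases, 3 were 2-fold or more below shScr and 0 above it, with a median of 0.10. The shares of all genes were 4.48% below and 2.96% above. YME1L1, an inner membrane protease, was at -1.69 to shScr and -1.31 to parental, and its second probe at -1.49 to shScr. CLPX, the unfoldase of the matrix protease CLPXP, was at -1.02, and HSPA9, the matrix HSP70 (annotated as HSPA9B), at -1.01 to shScr. Against parental CLPX was at -0.50 and HSPA9 at -0.59. Of 11 genes of mitochondrial import, 1 was 2-fold lower and 1 higher, the paralogs TIMM17A (-1.65) and TIMM17B (1.07) of the inner membrane channel. The same all-gene shares apply to these counts. TOMM70, an outer membrane receptor annotated as TOMM70A, was at -0.91.

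Cytosolic heat shock genes were mostly below shScr and lay on both sides of parental. Of 13 compared, 5 were 2-fold or more below shScr and 0 above it (median -0.77), against 4.48% and 2.96% of all genes. To parental, 2 were 2-fold or more below and 1 above (median -0.03), against 3.04% and 0.862%. Between the controls, 4 of 13 were 2-fold higher in shScr than in parental cells, against 0.404% of all genes. None of the 13 was below parental in shScr cells. HSPH1, of the HSP110 family, was at -2.36 to shScr, -0.98 to parental and 1.38 for shScr minus parental. HSPA1A, the inducible HSP70, was at -2.21, -0.19 and 2.01, with its second probe at -2.23, 0.30 and 2.53, and it cannot be separated from its near-identical copy HSPA1B. CHORDC1, an HSP90 co-chaperone, was at -1.83, -1.02 and 0.81. The difference between these lists was not tested.

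**Figure D4:**
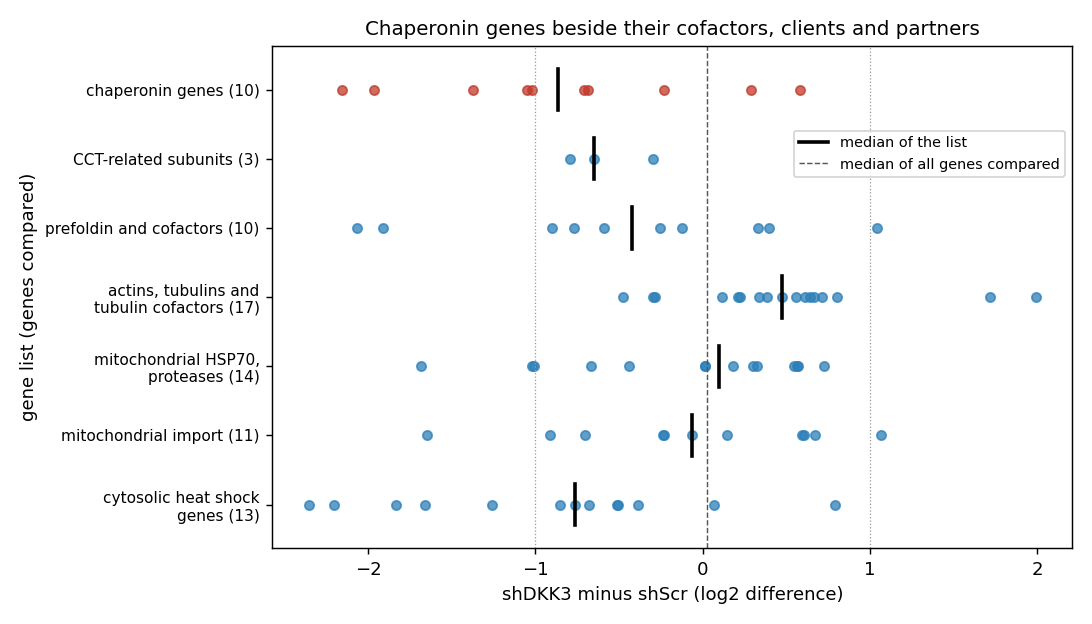
Log2 difference of shDKK3 minus shScr for the 10 chaperonin genes (red) and for each gene of 6 lists of related genes (blue), with list medians as black bars, the median of all compared genes dashed and 2-fold dotted. The chaperonin median of -0.86 and the cytosolic heat shock median of -0.77 lie left of the all-gene median of 0.03. The median of actins, tubulins and tubulin cofactors, 0.47, lies right of the all-gene median.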

How the data were processed

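The scanner files hold intensity values as the authors deposited them. Per the file headers, the column used is the median of each spot at 635 nm, joined from scans at 3 gains by fitted lines, with no background removed (2680 blank spots averaged 46.9, 55.7 and 50.1 on the shDKK3, shScr and parental arrays). These values are a straight line of the deposited table of normalised intensity (slopes of spot on deposited value 1.04, 1.83 and 1.41), whose median is 25. Its scale is therefore linear, uncentred, and runs the same way. The method of its normalisation and the scanner are not given in the sources used here.

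Spot medians were corrected with normexp (limma 3.58.1, R 4.3.3, offset 50) and quantile normalised over gene probes on the log2 scale. The 9 probes with a flag other than good were dropped. Detection required the blank mean plus 2 SD. A gene was represented by its brightest probe and compared where detected on the brighter array. Of the probes, 20236 have 1 symbol, 4224 none and 0 several. The rule named the 10 genes, up to 3 genes per list with the largest shDKK3 minus shScr difference, 5 genes nearest HSPD1 and DKK3. ACTB and ACTG1 are given outside that rule, as the actins of their list. The normalisation was tested on simulated data in which bright probes alone were changed, by a known large fold and equally often up and down. Dim probes and differences near 2-fold were not covered by it. Sequence windows and current names came from RefSeq tables (GRCh38.p14). Members and lists were chosen with earlier results of these data known.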

Additional observations from a re-analysis of the deposited data

How the results depend on the processing

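The 2-fold count and the median of the 10 genes were recomputed under 12 processing alternatives, and the count also at 1.5-fold and 3-fold. A median was taken as moved where it changed by at least 0.16 (log2), the robust SD of shScr minus parental over all genes, and a count where it changed by over 1.5 times. For shDKK3 minus shScr, scaling to the 75th percentile gave a median of -0.53 and 3 genes, the deposited table a median of -0.27, and a 3-fold threshold 2 genes. For shDKK3 minus parental, scaling to the 75th percentile gave -0.17 and 1 gene (CCT6A), the deposited table -0.098 and 1 gene (CCT7, higher), a 1.5-fold threshold 5 genes and a 3-fold threshold 0. For shScr minus parental, the deposited table gave 0.076, the subtracted background column 0.68 and 4 genes over the 8 genes with a value, and a 1.5-fold threshold 4 genes. Shares of all genes at 1.5-fold and 3-fold were not computed, so whether the counts at those thresholds differ from other genes is unknown. The other 30 medians and 34 counts did not move by these measures. A count took no account of direction or of which genes passed. For shDKK3 minus shScr, the 4 genes in the deposited table were HSPD1 and CCT6A, lower, and HSPE1 and CCT7, higher. With the background column the 5 genes were HSPD1, CCT3, CCT5 and CCT6A, lower, and CCT7, higher. To parental that column gave 3 genes, HSPD1, CCT3 and CCT5, all lower. No gene counted as 2-fold apart in a comparison as reported changed sign there in a setting that gave it a value. With the background column, 2 genes under 2-fold changed sign to parental, TCP1 (0.14) and CCT3 (-1.99). HSPD1 ran between -1.98 and -1.25 to shScr, and between -1.16 and -0.80 to parental, over 11 alternatives without the background column. CCT6A ran between -2.19 and -1.48, and between -1.27 and -0.94. With the background column subtracted CCT8 had no value in any comparison and HSPE1 none that involves the parental array.

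Over all genes, the alternatives gave between 224 and 2200 higher and between 627 and 2019 lower genes for shDKK3 minus shScr (448 and 679 as reported). They gave between 64 and 905 higher and 387 and 1624 lower for shDKK3 minus parental (129 and 455), and between 55 and 836 higher and 109 and 955 lower for shScr minus parental (60 and 146). The share of lower genes, 60.2%, 77.9% and 70.9% in these comparisons, was 84.9%, 91.8% and 53.4% with scaling to the median, and 42.3%, 70.7% and 85.4% in the deposited table. It was 71.0% for shDKK3 minus shScr with cyclic loess, 66.0% for shDKK3 minus parental with scaling to the 75th percentile, and 60.4% for shScr minus parental with subtraction of the blank mean. With the background column it was 59.0% for shDKK3 minus parental and 53.3% for shScr minus parental. The cause of these shifts was not tested. No paired analysis was possible because each condition has 1 array. For the same reason no array could be left out.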
